A study of Mus musculus with 2 samples.

Results

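The 27 genes described here carry GABA and glycine signalling in the mouse: they make, break down and transport these transmitters, form or anchor their receptors, or set the chloride gradient that the receptors use. They were taken as a list of GENCODE mouse symbols, by a rule that uses no measured value, though the list was drawn up with earlier results of these data known. All 27 were found, each with 1 Ensembl identifier, among the 43346 Ensembl genes of the deposited tables. RNA was measured in the hindbrain of healthy embryos of the B6NCrl strain at embryonic day 12.5 (e12.5), in 2 libraries. Replicate 1 came from a pool of 120 embryos and replicate 2 from a pool of 88 embryos, with both sexes in each pool. The labels number them as separate biological replicates and give each its own tissue sample, but name the same donor entry for both, so the SDs and n = 2 rest on their being separate pools. Both belong to 1 group, so the data give levels with the spread between pools and no contrast of conditions.

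GABA and glycine are the fast inhibitory transmitters of the brainstem. Glutamate decarboxylases make GABA, a vesicular transporter loads GABA and glycine into synaptic vesicles, transporters of the plasma membrane take them up again, and both GABA-A and glycine receptors are chloride channels. In embryonic neurons the chloride importer Slc12a2 keeps internal chloride high, so that opening these channels can depolarise the cell, and the exporter Slc12a5 later lowers it.

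The libraries held 31633169 expected counts (estimated fragments per gene) in replicate 1 and 29766460 in replicate 2. Levels are given as TPM, a length-corrected abundance with 1 fixed total per library, which the authors computed, and errors are SDs over the 2 pools. In replicates 1 and 2, the summed TPM of 10 neuron markers was 3363 and 3488, and that of 9 hindbrain markers such as Hoxa2 and Hoxb2 was 219 and 277. Of the marker lists, the pools differed most in 8 skeletal muscle markers, whose summed TPM was 54.4 and 259. Spike-in RNA took 3.41% and 4.36% of the counts. In bulk tissue, fewer cells of a type and less RNA per cell cannot be told apart.

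A first look at the sequence of Gad1, the glutamate decarboxylase gene at chr2:70553072-70602014, shows what its transcripts differ in. Rodent Gad1 has an exon used in the embryonic brain that brings an early stop codon, so that transcripts with it encode a short protein without the catalytic part. The sequences below, read from GENCODE M21 transcripts on GRCm38 (mm10), plus strand, are shown because the share of Gad1 RNA with and without this exon is one of the main measurements. The Gad1-201 line joins the last bases of the exon before the embryonic exon (chr2:70579182-70579201) to the first bases of the exon after it (chr2:70585834-70585853), in capitals. The Gad1-203 line joins the same exon end to the embryonic exon (chr2:70584420-70584456), read as far as its annotated stop codon, in capitals. The Gad1-206 line is the first exon of the most abundant Gad1 transcript (chr2:70566377-70566453), shown because it replaces the part of the gene with the annotated start codon.
Gad1-201 junction: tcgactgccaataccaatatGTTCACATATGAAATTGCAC
Gad1-203 junction: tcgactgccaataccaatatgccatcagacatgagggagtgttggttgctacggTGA
Gad1-206 first exon: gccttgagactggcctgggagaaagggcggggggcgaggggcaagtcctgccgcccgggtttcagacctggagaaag

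With detection set at 1 TPM in each library, 20 of the 27 genes were detected, beside 63% of the 21474 protein-coding genes and 35.5% of all Ensembl genes. Abat and Gad2, which break down and make GABA, and the GABA-B receptor gene Gabbr1 had the highest levels, Gad1, the scaffold gene Gphn and the glycine receptor gene Glrb followed, and most GABA-A subunit genes stood near or below 1 TPM. The median member had 4.48 TPM in replicate 1 and 6.14 in replicate 2 (5.31 ± 1.17, n = 2), close to the median of all protein-coding genes, 5.87 and 6.07 TPM. Detected were 3 of 3 synthesis and breakdown genes, 5 of 5 transporters, 4 of 10 GABA-A subunits, 2 of 2 GABA-B subunits, 3 of 4 glycine receptor subunits, 1 scaffold gene of 1 and 2 of 2 chloride transporters.

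**Figure D1:**
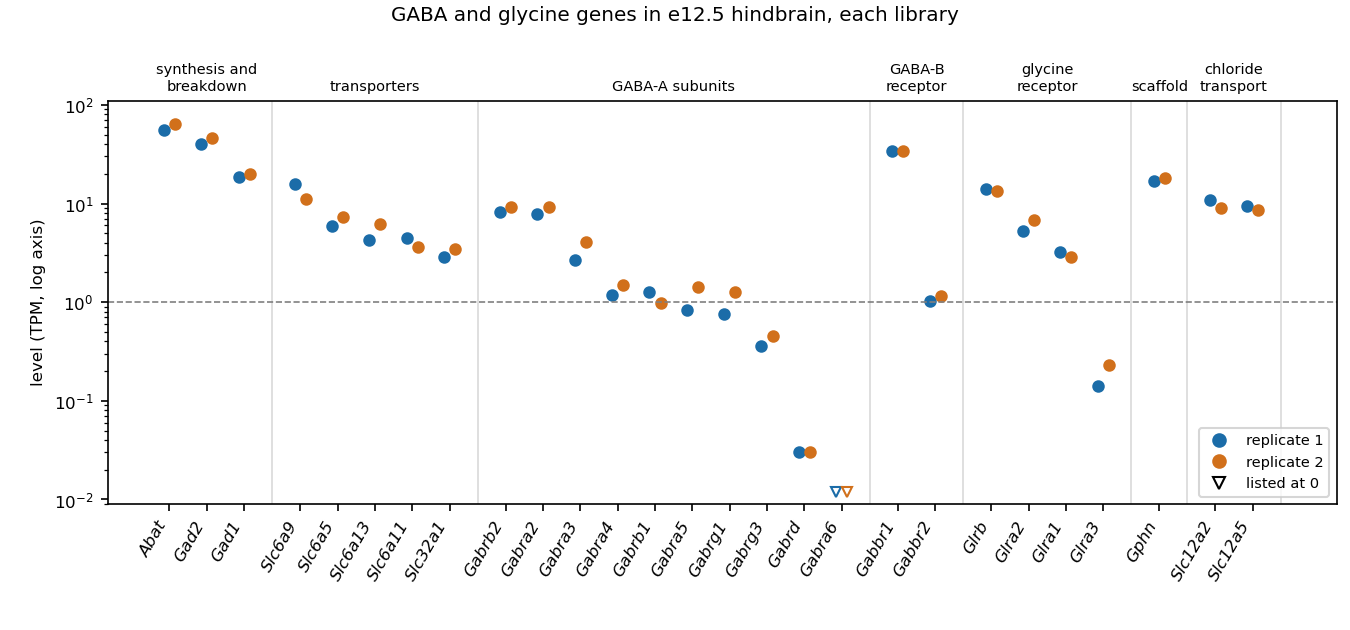
Level of each of the 27 genes in TPM (log axis) by role, with 1 point per library and open triangles for a gene listed at 0; the dashed line is 1 TPM. Abat reaches 55.4 and 63.4 TPM, the 2 libraries lie close together for most genes, and 6 of the 10 GABA-A subunit genes fall below the line in at least 1 library.

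Abat, the transaminase that breaks down GABA, was the highest of all members, with 55.4 TPM in replicate 1 and 63.4 TPM in replicate 2 (59.4 ± 5.68, n = 2). That put it above 85.3% and 87.0% of protein-coding genes. Gad2, the glutamate decarboxylase linked to the filling of synaptic vesicles, was at 40.6 and 46.5 TPM (43.5 ± 4.18, n = 2). Gad1, the decarboxylase that supplies most of the GABA in the brain, was at 18.6 and 19.9 TPM (19.2 ± 0.912, n = 2). In both libraries the order was Abat, Gad2, Gad1, and the ranges over the pools did not overlap. Within a library, log2 of the ratio of Gad2 to Gad1 was 1.13 in replicate 1 and 1.23 in replicate 2 (1.18 ± 0.07, n = 2), a ratio of 2.19 and 2.34.

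Much of the Gad2 level rested on 1 short transcript. Gad2-202, a transcript of 721 nt with no annotated coding sequence, took 55.1% and 55.7% of Gad2 TPM but 11.9% and 12.1% of Gad2 counts. It shares 589 nt with the coding transcript Gad2-201, so fragments from those bases were divided between them by the authors' method. Gad2-201, of 5744 nt, was at 18.2 and 20.6 TPM. Counting protein-coding transcripts alone, a choice made after seeing the data, Gad2 stood at 19.4 ± 1.68 TPM and Gad1 at 8.15 ± 0.113 TPM (n = 2 each). Gad2 was still the higher of the pair on that scale, with a mean log2 ratio of 1.25.

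Gad1 had 8 transcripts in the files, and the one with most of its TPM was not the full coding one. Gad1-206, annotated as a processed transcript of 2996 nt and 16 exons, held 49.8% of Gad1 TPM in replicate 1 and 48.8% in replicate 2 (49.3% ± 0.714, n = 2), from 508 and 491 counts. Its first exon, printed above, lies downstream of the annotated Gad1 start codon at chr2:70563832-70563834, so Gad1-206 does not contain that codon. The remaining exons follow Gad1-201: the pair share 2919 nt, and 77 nt of Gad1-206 and 436 nt of Gad1-201 lie outside the other. Gad1-201, with 593 codons the only transcript in the files with both the annotated start codon and the last exon, held 12.3% and 15.4% (13.9% ± 2.15, n = 2), from 142 and 174 counts. Because most of their bases are common to both, the division between them depends on fragments over a small part of the gene.

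In Gad1-203 the embryonic exon has 80 nt and brings its stop codon after 34 bases. The 3 Gad1 transcripts with it, Gad1-203, Gad1-205 and Gad1-207, together held 15.9% of Gad1 TPM in replicate 1 and 21.3% in replicate 2 (18.6% ± 3.80, n = 2), from 82.2 and 105 counts. Gad1-205 held 11.6% and 13.3%, Gad1-203 held 4.37% and 7.97%, and Gad1-207 was listed at 0 in both libraries. The share with the embryonic exon was higher than that of Gad1-201 alone in both libraries, though its lowest value, 15.9%, lay close to the 15.4% of Gad1-201 in replicate 2. Gad1-206 lacks the embryonic exon as well and has the same junction as Gad1-201. These 2 transcripts, the only ones with the last exon, together held 62.15% of Gad1 TPM in replicate 1 and 64.18% in replicate 2. The share with the embryonic exon was thus the smaller one in both libraries. All 3 transcripts with the embryonic exon are annotated with 223 codons, against the 593 of Gad1-201.

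**Figure D2:**
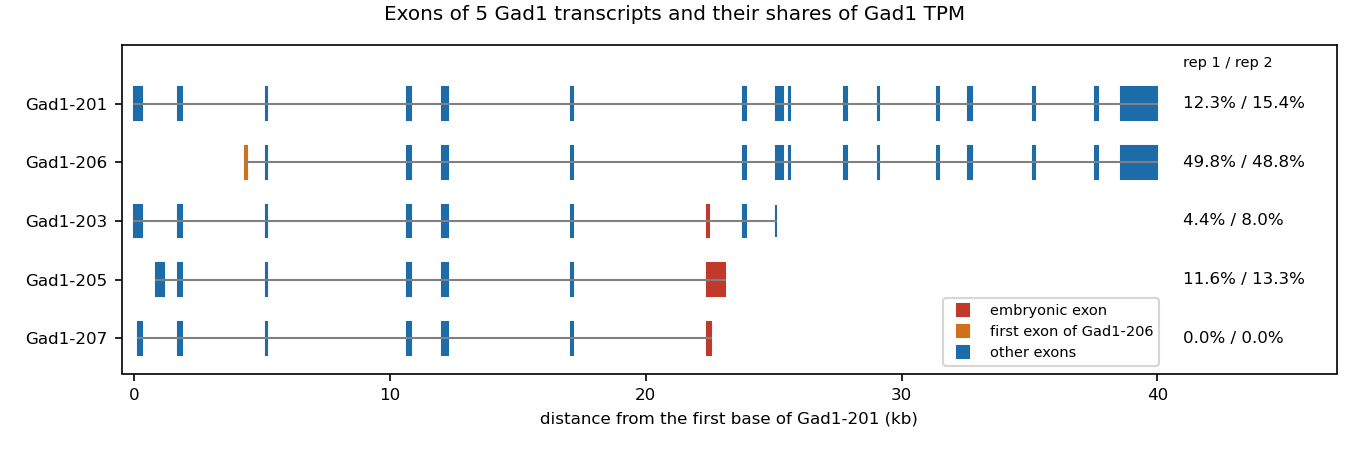
Exons of 5 Gad1 transcripts drawn to scale by distance from the first base of Gad1-201 (kb), with each transcript's share of Gad1 TPM in both libraries at the right. Gad1-206 starts from its own exon and keeps the downstream exons of Gad1-201, while Gad1-203, Gad1-205 and Gad1-207 carry the embryonic exon and stop short of the last exon.

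The transporters were all detected, at lower levels than the enzymes. Slc6a9, the glycine transporter of glia and of some neurons, was highest, with 15.9 TPM in replicate 1 and 11.2 TPM in replicate 2 (13.6 ± 3.32, n = 2). Slc6a5, the glycine transporter that marks glycinergic neurons, was at 5.90 and 7.27 TPM (6.59 ± 0.969, n = 2). Slc6a13, a GABA transporter found in the meninges as well, was at 4.24 and 6.14 TPM (5.19 ± 1.34, n = 2). Over the pools its range overlapped that of Slc6a5 and that of Slc6a11, a GABA transporter of astrocytes at 4.48 and 3.59 TPM (4.04 ± 0.629, n = 2), while Slc6a5 stood above Slc6a11 in both libraries. Slc32a1, the vesicular transporter shared by GABA and glycine, was the lowest at 2.89 and 3.47 TPM (3.18 ± 0.410, n = 2).

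Of the 20 detected genes, Slc6a9 had the widest gap between its TPM ratio and its count ratio. Its counts, 631 and 559, gave a log2 ratio of only -0.07 between replicate 2 and replicate 1 after scaling, while its TPM ratio was -0.50 on the log2 scale. Slc6a9-206, a noncoding transcript of 488 nt, took 23.6% of Slc6a9 TPM in replicate 1 from 27.7 counts and 0.29% in replicate 2 from 0.22 counts. Without it, Slc6a9 stood at 12.1 and 11.2 TPM (11.7 ± 0.679, n = 2). The order of Slc6a9 above Slc6a5 held in both libraries, with log2 ratios of 1.43 and 0.62 (1.03 ± 0.57, n = 2). B4galt2, a gene of the opposite strand that overlaps Slc6a9, was at 36.1 and 35.4 TPM, and without strand its fragments in the overlap cannot be told apart from those of Slc6a9.

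For comparison with glutamate release, the vesicular glutamate transporter Slc17a6 was at 31.6 and 35.4 TPM (33.5 ± 2.65, n = 2). Slc17a8 was at 2.11 and 1.64 TPM and Slc17a7 at 0.78 and 0.66 TPM. Log2 of the ratio of Slc32a1 to Slc17a6 was -3.45 in replicate 1 and -3.35 in replicate 2 (-3.40 ± 0.07, n = 2). The vesicular transporter of inhibitory neurons thus stood below Slc17a6 in both libraries, while Gad2 stood above Slc17a6 in both when all of its transcripts were counted and below it when Gad2-201 alone was.

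Among the GABA-A receptor subunits, 2 genes led. Gabrb2, a beta subunit, had 8.27 TPM in replicate 1 and 9.18 in replicate 2 (8.73 ± 0.643, n = 2). Gabra2, an alpha subunit known for high levels in embryonic brain, was at 7.77 and 9.27 TPM (8.52 ± 1.06, n = 2). The pair did not separate beyond the spread between pools. The Gabra2 value rests on 1 transcript, which M21 annotates as a target of nonsense-mediated decay and with another length than in the files (2245 nt against 2392 nt).

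Gabra3, an alpha subunit gene on the X chromosome, followed at 2.66 and 4.12 TPM (3.39 ± 1.03, n = 2). Gabra4 was at 1.17 and 1.49 TPM (1.33 ± 0.226), Gabra5 at 0.83 and 1.43 TPM (1.13 ± 0.424), Gabrb1 at 1.27 and 0.99 TPM (1.13 ± 0.198) and Gabrg1 at 0.76 and 1.27 TPM (1.02 ± 0.361), each with n = 2. These 4, which include 2 alpha subunits, a beta subunit and a gamma subunit, overlapped each other over the pools, and only Gabra4 reached 1 TPM in both. Gabrg3, another gamma subunit, was at 0.36 and 0.45 TPM from 20 and 23 counts.

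The subunits that mark mature cerebellar granule cells were at or near 0. Gabra6, the alpha subunit largely confined to granule cells in the adult brain, was listed at 0 in both libraries, which allows a level of up to 0.0770 TPM in replicate 1 and 0.0835 in replicate 2, the value of 3 counts per library. Gabrd, the delta subunit of receptors outside synapses, had 1 count in each library, or 0.03 TPM. Neither could be compared between the pools. Of the other subunit genes, 6 were counted with the wider pathway and the rest are not analysed here.

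Levels of neighbouring GABA-A subunit genes were unequal. Gabrg1, Gabra2, Gabra4 and Gabrb1 lie together at chr5:70751047-72149037, a span of 1.40 Mb, and of these Gabra2 alone was above 2 TPM, with the other 3 at mean levels of 1.02 to 1.33 TPM. Gabra6 and Gabrb2 lie within 0.323 Mb on chromosome 11, with the lowest and the highest mean level of the 10. Gabra5 and Gabrg3 lie within 0.794 Mb on chromosome 7, at 1.13 and 0.405 TPM. Gabra4 and Gabrb1 overlap by 196 nt on opposite strands, and since none of the sources used here states the strand of the libraries, fragments from those bases cannot be told apart. Opposite-strand transcripts also overlap Gad1 (Gad1os, 0.53 and 0.51 TPM) and Slc32a1 (Gm14205, 0.92 and 0.57 TPM).

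The GABA-B receptor genes stood far apart. Gabbr1, the subunit that binds GABA, had 34.3 TPM in replicate 1 and 33.8 in replicate 2 (34.0 ± 0.346, n = 2). Gabbr2, the subunit that couples to G proteins and brings Gabbr1 to the cell surface, was at 1.02 and 1.16 TPM (1.09 ± 0.0990, n = 2). The log2 ratio of Gabbr1 to Gabbr2 was 5.07 and 4.86 (4.97 ± 0.15, n = 2), a ratio of 33.6 and 29.1. Both libraries gave the same order, and of the 8 ratios computed within libraries this one was farthest from 0.

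Gabbr1 has a longer and a shorter receptor form that start from separate promoters, and the longer one led. Gabbr1-201, with 960 codons, held 37.1% and 39.8% of Gabbr1 TPM (38.4% ± 1.86, n = 2). Gabbr1-203, with 844 codons and a start codon 4159 bp downstream at chr17:37050854-37050856, held 20.6% and 14.8% (17.7% ± 4.05, n = 2). The ranges over the pools did not overlap.

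The glycine receptor was represented by 3 detected subunit genes. Glrb, the beta subunit that binds the scaffold gephyrin, had 13.9 TPM in replicate 1 and 13.4 in replicate 2 (13.6 ± 0.368, n = 2). Glra2, the alpha subunit typical of embryonic neurons, was at 5.29 and 6.86 TPM (6.08 ± 1.11, n = 2). Glra1, the alpha subunit of adult brainstem and spinal cord, was at 3.20 and 2.86 TPM (3.03 ± 0.240, n = 2). Glra2 stood above Glra1 in both libraries, with log2 ratios of 0.73 and 1.26 (0.99 ± 0.38, n = 2). Glra3, a further alpha subunit, was at 0.14 and 0.23 TPM from 8 and 7 counts. Glrb stood above the sum of the 3 alpha subunits, with log2 ratios of 0.69 and 0.43 (0.56 ± 0.18, n = 2).

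Summed over their listed subunits, GABA-A and glycine receptor genes were at similar levels. The 10 GABA-A genes summed to 23.1 and 28.2 TPM, and the 4 glycine receptor genes to 22.5 and 23.3 TPM. The log2 ratio of the sums was 0.04 in replicate 1 and 0.28 in replicate 2 (0.16 ± 0.17, n = 2), so the mean lay within 1 SD of 0. Counting protein-coding transcripts alone turned this ratio to -0.40, a setting in which Gabra2 counted as 0. The GABA-A sum covers the listed subunits only.

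Gphn, the gephyrin scaffold that anchors both receptor types at synapses, had 16.9 TPM in replicate 1 and 18.0 in replicate 2 (17.5 ± 0.778, n = 2). Of its transcripts, Gphn-202 held 61.2% and 69.8% and Gphn-201 held 38.8% and 30.2%. In M21, Gphn-202 carries an exon of 108 nt that Gphn-201 lacks, and Gphn-201 carries exons of 57 and 42 nt that Gphn-202 lacks, though neither transcript has the same length in M21 and in the files. Gphn-202 led in both libraries.

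The chloride transporters were near balance at the level of RNA. Slc12a2, the importer, had 10.9 TPM in replicate 1 and 9.02 in replicate 2 (9.98 ± 1.35, n = 2). Slc12a5, the exporter found in neurons, was at 9.47 and 8.52 TPM (9.00 ± 0.672, n = 2). The log2 ratio of importer to exporter was 0.21 and 0.08 (0.14 ± 0.09, n = 2), and the ranges of the pair over the pools overlapped. Slc12a2 has 1 transcript in the files, whereas intron-retaining transcripts held 36.9% and 28.2% of Slc12a5 TPM. With protein-coding transcripts alone, Slc12a5 stood at 6.05 ± 0.0990 TPM (n = 2) and the mean log2 ratio was 0.71.

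**Figure D3:**
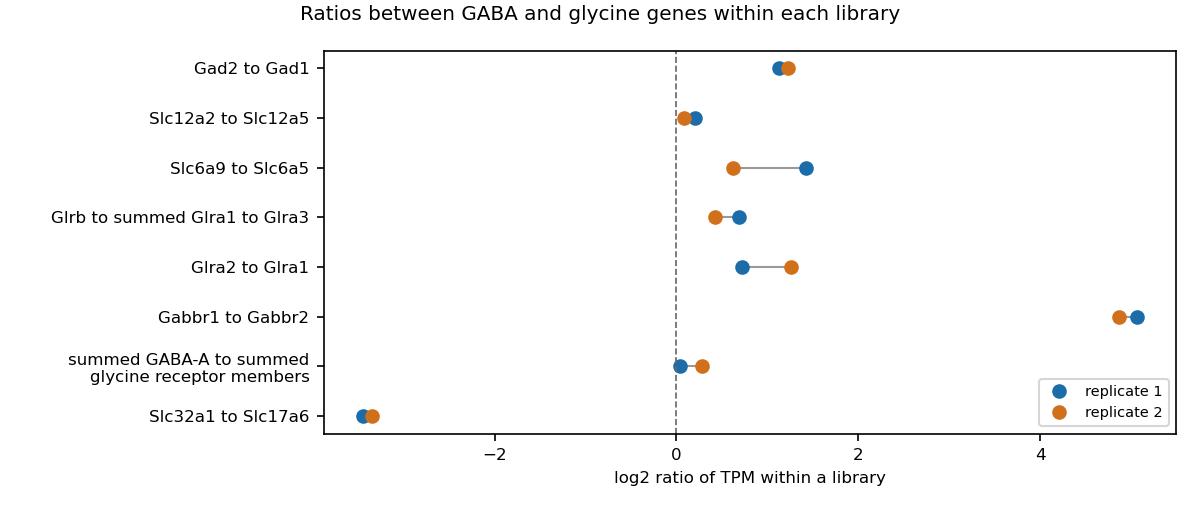
Log2 ratio of TPM of 8 pairs of genes or sums within each library, with 1 point per library and a line between them; the dashed line marks equal levels. Gabbr1 to Gabbr2 lies near 5, Slc32a1 to Slc17a6 near -3.4, and Slc6a9 to Slc6a5 has the widest gap between libraries, 1.43 against 0.62.

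Leading transcripts were stable between the pools. Of the 18 genes with several transcripts in the files, 10 were at 5 TPM or more in both libraries, and all 10 had the same leading transcript in both. That transcript was protein-coding in 8 of them and held 50% or more in both libraries in 7. The clearest were Gabrb2-201 with 92.5% and 86.5%, Glrb-201 with 82.4% and 86.7%, and Abat-201 with 77.1% and 74.9%. Gad1 and Gad2 were the exceptions with a leading transcript that has no annotated coding sequence.

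**Figure D4:**
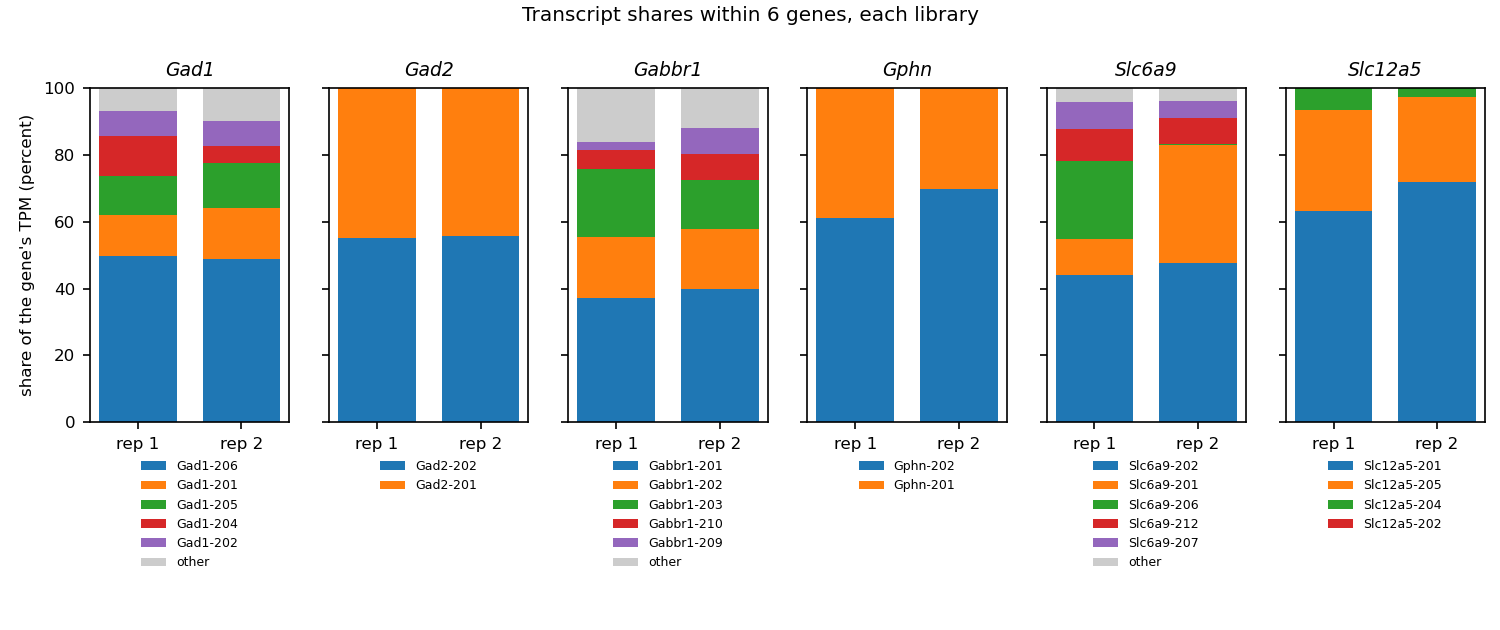
Share of each gene's TPM in its transcripts (percent, stacked bars, 1 bar per library) for 6 of the genes with several transcripts. The leading transcript is the same in both libraries of each gene, and Slc6a9-206 is at 23.6% in replicate 1 and 0.29% in replicate 2.

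Between the pools, the genes moved little. By an exact binomial test on counts, which allows for counting error only, 10 of the 25 genes with at least 10 summed counts were called at an adjusted p of 0.05, beside 20.4% of the 19210 genes tested. Of these, 8 were higher in replicate 2, beside 10.7% of all genes, and 2 were lower, beside 9.67%. With the spread that the 2 libraries show over all genes included, the edgeR exact test called 0 of 25, beside 1.57% of all genes, 0.942% higher and 0.625% lower in replicate 2. At an unadjusted p under 0.05 the edgeR test had 3 of the 25, and the lowest adjusted edgeR p was 0.370, for Gabrg1. These tests compare 2 libraries and no condition, and the direction of the calls depends on the scaling: scaled to spike-in counts, 0 were higher and 13 lower, with the median log2 ratio of all genes at -0.37.

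The log2 ratios of replicate 2 over replicate 1 had a median of 0.16 over the 25 genes, with 16 above 0 and 9 below. Over all genes tested the median was -0.00, with 49.6% above 0. Individual ratios ran from -0.36 for Gabrb1 to 0.77 for Gabra5, whose counts were 40 and 64. Under spike-in scaling 12 of the ratios changed from above to below 0.

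The called genes came from several roles. Abat had 4220 counts in replicate 1 and 4403 in the shallower replicate 2, a log2 ratio of 0.16 (exact binomial test, adjusted p = 3.98e-06). Gad2 had 2217 and 2318 counts, a log2 ratio of 0.17 (exact binomial test, adjusted p = 0.00133). For these genes of high count the test called changes of about 1.12-fold. Gabra3 had 180 and 236 counts, a log2 ratio of 0.49 (exact binomial test, adjusted p = 0.00507), and Gabrg1 had 67 and 104 counts, a log2 ratio of 0.73 (exact binomial test, adjusted p = 0.00942). Glra2, Slc6a13, Slc6a5 and Gabra5 were the other genes called higher in replicate 2, with log2 ratios of 0.36, 0.44, 0.21 and 0.77.

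The genes called lower in replicate 2 were Slc12a2 and Slc6a11. Slc12a2 had 1331 and 1013 counts, a log2 ratio of -0.29 (exact binomial test, adjusted p = 2.06e-05). Slc6a11 had 337 and 249 counts, a log2 ratio of -0.33 (exact binomial test, adjusted p = 0.0314). Progenitor markers had a summed TPM of 2792 in replicate 1 and 2569 in replicate 2, but a median of 134 and 140 TPM. Of their 8 count ratios, 7 were below 0 and 1 above. By the binomial test 4 of 8 were lower, beside 9.67% of all genes, and 0 higher, beside 10.7%. By edgeR 0 were called (0 at an unadjusted p under 0.05), beside 1.57% of all genes. Of the 4 astrocyte markers tested, 2 had ratios above 0 and 2 below. Aldh1l1 was at 15.7 and 10.4 TPM and was called lower by the binomial test, Gja1 was at 131 and 153 TPM, their list summed to 160 and 179 TPM, and the defining marker Gfap was near 0 at 0.04 and 0.09 TPM. The part of either cell type in these differences was not tested.

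**Figure D5:**
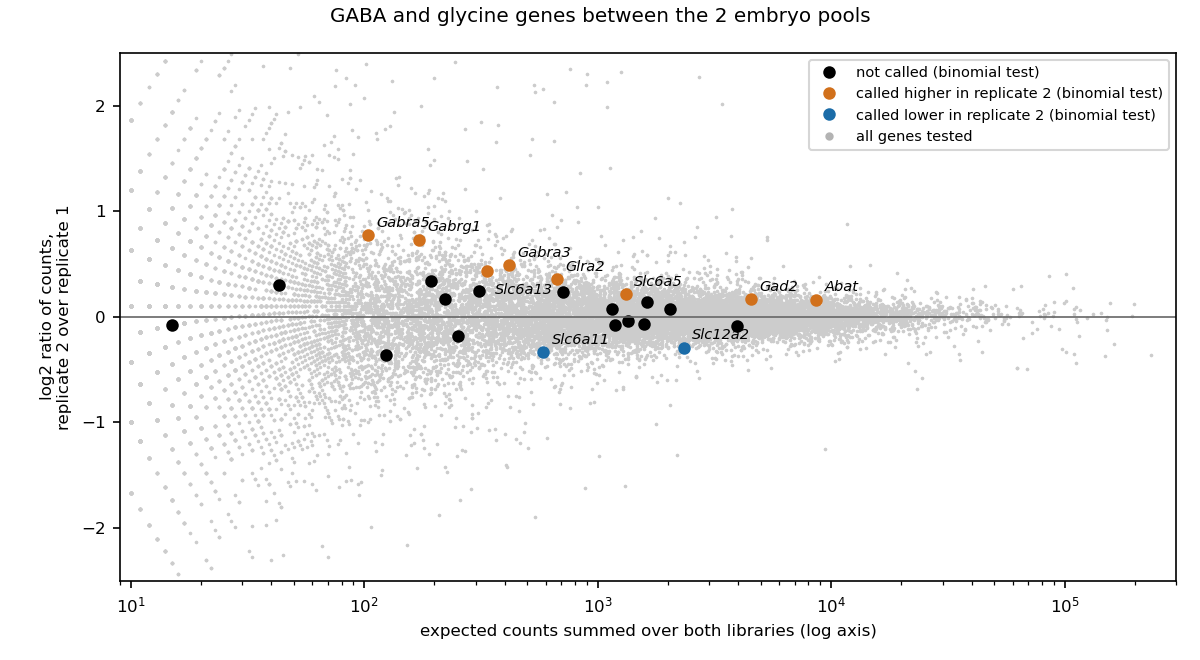
Log2 ratio of counts, replicate 2 over replicate 1, against counts summed over both libraries (log axis) for all genes tested (grey) and the GABA and glycine genes (large points), coloured by the binomial test; genes beyond 2.5 in either direction are not drawn. The members lie inside the cloud of all genes, and the 10 called ones run from -0.33 to 0.77.

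Several marker lists of other tissues, and that of the hindbrain itself, also differed between the pools. Of all 19210 genes tested, the binomial test called 10.7% higher and 9.67% lower in replicate 2. By edgeR these shares were 0.942% and 0.625%, and under spike-in scaling 326 genes were higher and 12683 lower. Among 7 mesenchyme and meninges markers 6 were higher in replicate 2 by the binomial test and 0 by edgeR (2 at an unadjusted p under 0.05), but 2 were higher and 3 lower under spike-in scaling. Their summed TPM was 1381 in replicate 1 and 1793 in replicate 2. Slc6a13 is among the genes that meninges also express. All 8 skeletal muscle markers were higher in replicate 2 by both tests and under spike-in scaling. Among 8 transcription factors of forebrain interneurons 6 were higher by the binomial test, 3 under spike-in scaling and 2 by edgeR. Nkx2-1, which marks ventral forebrain, had 4 counts in replicate 1 and 53 in replicate 2 (edgeR exact test, adjusted p = 6.50e-08), and Dlx5 was at 8.61 and 15.2 TPM (edgeR exact test, adjusted p = 0.0201). Summed, the 8 factors were at 28.6 and 42.6 TPM. Of 6 erythroid markers 4 were lower and 0 higher in replicate 2 by the binomial test and 0 were called by edgeR (3 at an unadjusted p under 0.05), with summed TPM of 10544 and 8200. Of 9 hindbrain markers 7 were higher by the binomial test and 0 by edgeR (4 at an unadjusted p under 0.05), but 1 was higher and 2 lower under spike-in scaling. Of 6 choroid plexus markers 3 were higher by the binomial test and 0 by edgeR (1 at an unadjusted p under 0.05), but 0 were higher and 2 lower under spike-in scaling. Of 10 neuron markers 6 were higher and 2 lower by the binomial test, and 0 were called by edgeR. Under spike-in scaling 0 of the neuron markers were higher and 10 lower. Of 5 endothelial markers 1 was higher by the binomial test, and of 5 microglia markers 0 were called. By edgeR 0 of either list were called. The part of these tissues and cells in the differences of GABA and glycine genes was not tested.

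Of a list of 38 further genes of the pathway, 32 were detected. Among the 35 tested, 3 were higher and 4 lower in replicate 2 by the binomial test, together 7, a share close to the 20.4% of all genes. By edgeR 0 were called (1 at an unadjusted p under 0.05). Under spike-in scaling 1 was higher and 29 lower, beside 326 and 12683 of all 19210 genes. The 7 were Gabrp, Maob and Dld, higher, and Amt, Shisa7, Kctd12 and Slc12a7, lower, some of which were named here after their values were seen. The genes of highest level are active in most cells: Gabarap, which binds GABA-A receptors and takes part in autophagy, was at 490 and 492 TPM, and its relative Gabarapl2 at 272 and 267 TPM. The glutamine transporters Slc38a2 and Slc38a1, which supply the precursor of glutamate and GABA, were at 147 ± 3.51 and 57.9 ± 1.71 TPM (n = 2 each). The lowest gene of that group was Slc6a12, a betaine and GABA transporter, at 0.25 and 0.16 TPM.

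Glycine cleavage genes were all detected, 6 of 6 of the list for making and cleaving glycine. Dld, a subunit shared with other mitochondrial complexes, was at 125 ± 6.42 TPM, Gcsh, the carrier protein of the system, at 78.8 ± 2.48 TPM, and Gldc, its decarboxylase, at 16.3 ± 0.820 TPM (n = 2 each). Dld was called higher and Amt, the aminomethyltransferase of the system, lower in replicate 2 by the binomial test, with log2 ratios of 0.09 and -0.27. Of the enzymes that handle GABA beside Abat, Aldh9a1 was at 30.9 ± 1.36 TPM, and Aldh5a1, which acts on the product of Abat, at 7.39 ± 0.198 TPM (n = 2 each). Maob, a monoamine oxidase that takes part in making GABA from putrescine in astrocytes, was at 3.63 and 6.13 TPM. Its log2 ratio of counts between the pools, 0.77, was the largest in either direction of the 35 further pathway genes tested.

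Receptor genes outside the members were scarce. Of 6 further GABA-A subunit genes 2 were detected: Gabrp at 3.94 and 5.30 TPM and Gabrq at 1.40 and 1.39 TPM. Gabrr1, a rho subunit known from the retina, was listed at 0, and the glycine receptor gene Glra4 was at 0.15 and 0.13 TPM. The GABA-B auxiliary subunits were all detected, Kctd12 at 18.1 and 15.5 TPM, Kctd8 at 5.88 and 5.56 TPM and Kctd16 at 1.94 and 1.23 TPM. All 3 were above Gabbr2 in both libraries.

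The kinases that regulate Slc12a2 and Slc12a5 by phosphorylation stood above both transporters. Stk39 was at 46.4 and 44.5 TPM, Wnk1 at 43.7 and 45.8 TPM and Oxsr1 at 16.0 and 15.3 TPM. None of the 3 was called between the pools by either test. Plcl1, a binding partner of Gabarap and of GABA-A receptors, was at 4.32 ± 0.205 TPM (n = 2).

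Transcription factors of inhibitory neurons and their progenitors were expressed more strongly than most receptor genes. Of 18 such factors 16 were detected, with a median of 9.10 and 11.3 TPM. Lhx1 and Lhx5, expressed in many inhibitory lineages of hindbrain and cerebellum, were at 54.6 ± 1.75 and 54.3 ± 2.12 TPM, and Gata3, a factor of ventral inhibitory interneurons, at 45.4 ± 8.90 TPM (n = 2 each). The lowest were Helt, at 1.25 and 0.76 TPM, and Dmrt3, at 0.55 and 0.62 TPM.

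These factors differed between the pools in both directions. Lbx1, Pax8, Pax2 and Lhx1 were called higher and Gata2, Gata3 and Sox14 lower in replicate 2 by the binomial test, 7 of 18 beside 20.4% of all genes, and edgeR called 1, Lbx1, beside 1.57% of all genes. Under spike-in scaling 2 were higher and 13 lower, beside 326 and 12683 of all 19210 genes. Lbx1, Pax2 and Sox14 are named here after their values were seen. Lbx1, a factor of dorsal hindbrain neurons, was at 8.84 and 15.2 TPM (edgeR exact test, adjusted p = 0.0190), Pax8 at 22.1 and 31.4 TPM, Gata3 at 51.7 and 39.1 TPM and Gata2 at 19.4 and 15.0 TPM. Of the GABA and glycine members, by comparison, the binomial test called 10 of 25 and edgeR 0. Gad1, Slc32a1 and Gphn were among those not called by either test, with log2 ratios of 0.14, 0.25 and 0.08.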

How the data were processed

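The authors deposited 1 gene table and 1 transcript table per library on mm10 with the GENCODE M4 annotation. For the aligner and quantifier, no name was given in the sources used here. Expected counts, as deposited by the authors, estimate the fragments of each gene and can be fractional. The deposited TPM and FPKM values are corrected for length, per the file headers, and the transcript tables hold each transcript's share of its gene as a percent, per the file headers. Per the labels' protocols, libraries started from 10 ng of RNA over 200 nt with ERCC spike-ins.

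Names, coordinates and sequences were taken from GENCODE M21 (mm10), which matched 42462 of the 43346 Ensembl genes. The 26248 numbered entries that name no gene, 0.000107% and 0.000114% of counts, stayed out. Members and lists were chosen with earlier results of these data known. Named were all members, the 2 highest and the lowest gene of each role of the further pathway genes, the 6 highest and 2 lowest identity factors, and called markers. Some genes that this rule names are not reported here.

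Counts were rounded to whole numbers and scaled by TMM (edgeR 4.0.16, R 4.3.3; factors 0.999708 and 1.00029). Libraries were compared with an exact binomial test, two-sided, from scipy 1.17.1, with Benjamini-Hochberg adjustment over the 19210 genes of 10 or more summed counts, threshold 0.05. Log2 ratios between the libraries are of counts with 0.5 added. The alternative, edgeR's exact test, used a common dispersion from the same 2 libraries (coefficient of variation 9.02%), so its p-values lean on their own difference. No edgeR quasi-likelihood test could be fitted with 1 library on each side. No permutation over 2 libraries goes below p = 0.5, so levels and ratios carry no test. The binomial test was tried on simulated counts with known changes. Those counts held counting error only, as the test assumes, so the trial cannot show how the test does with spread between pools. Floors of 3 counts cover counting error only. Other scalings, units, filters and transcript sets were tried as alternatives.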

Additional observations from a re-analysis of the deposited data

How the results depend on the processing

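No paired analysis was possible because both libraries belong to 1 group. With FPKM the median member was at 3.15, and with protein-coding transcripts alone (chosen after seeing the data) at 3.47 TPM. That setting turned the log2 ratio of GABA-A to glycine receptor sums to -0.40, and gave 1.25 for Gad2 to Gad1, 0.71 for Slc12a2 to Slc12a5, 0.33 for Glrb to the alpha subunits and 4.63 for Gabbr1 to Gabbr2. Posterior mean TPM gave 4.76 for Gabbr1 to Gabbr2, and log2(TPM + 1) gave 4.07 for that ratio and -3.05 for Slc32a1 to Slc17a6. Between the pools, edgeR's exact test called 0 members in either direction (0 higher and 0 lower), against 10 by the binomial test. Spike-in scaling called 0 higher and 13 lower, with 13009 of 19210 genes called. The log2 ratio was then below 0 for Gad1 (-0.23), Gad2 (-0.20), Abat (-0.21), Slc32a1 (-0.12), Slc6a5 (-0.16), Gabra2 (-0.13), Gabra4 (-0.030), Gabrb2 (-0.30), Gabrg3 (-0.071), Gabbr2 (-0.20), Glra2 (-0.0097) and Gphn (-0.29), all above 0 under TMM. With DESeq2 size factors or library sizes alone, all 25 members kept their direction and their side of the threshold. Without the count filter, 23 did, and Slc6a5 and Gabra5 missed it at adjusted p = 0.0512 and 0.0525 (exact binomial test). The cause of these shifts was not tested.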

Other observations

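Some receptor genes rest on few counts: Glra3 on 8 and 7, Gabrg3 on 20 and 23 and Gabra5 on 40 and 64. Over all genes the SD of log2 ratios between the libraries was 1.08 at 10 to 50 summed counts, 0.71 at 50 to 200 and 0.17 at 1000 to 5000.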
